A study of Mus musculus with 6 samples.

Results

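Pkm encodes pyruvate kinase M, the enzyme that makes pyruvate and ATP at the last step of glycolysis in most cells other than hepatocytes. It was 1 of the 3201 genes in the deposited expression table and was singled out because the study drew it among its apoptosis genes, a heat map made from the same livers. Every gene of the table had been selected by the authors for a fold change and an unadjusted p between the same groups. The difference of Pkm between the groups was therefore used to choose it, and it is described below with no test.

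Whole livers were analysed by RNA-seq from 3 Fgf18 f/f mice, called IR in the labels, and 3 Fgf18 △HSC mice, called 18KO. All were male mice on a C57BL/6 background, all carried the floxed Fgf18 allele and all went through partial hepatic ischemia-reperfusion, in which ischemia lasted 1 h and reperfusion 6 h. In Fgf18 △HSC mice, a Cre under the GFAP promoter deletes Fgf18, a secreted growth factor, in the hepatic stellate cell (HSC), which stores vitamin A beside the sinusoid. The GFAP promoter is also active outside the liver, for example in astrocytes. For the Fgf18 f/f livers the label names the operation in place of a genotype, so the study's text was the source for it. Neither group holds an unoperated liver, and the age of the mice is not given in the sources used here. No value of Fgf18 was used here, and the labels of the groups were not compared with the level of the deleted gene.

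Mammals have a pair of pyruvate kinase genes. Pklr gives the L form of hepatocytes, which is regulated by diet and by fructose bisphosphate, and the R form of red cells. Pkm gives the M1 form of muscle and brain and the M2 form of leukocytes, stromal, embryonic and dividing cells, and the choice between M1 and M2 is made by splicing in 1 of a pair of mutually exclusive exons. In a liver at rest, most pyruvate kinase is the L form, and Pkm comes largely from the cells between the hepatocytes.

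In the GENCODE M21 annotation of GRCm38, Pkm (ENSMUSG00000032294) lies on the plus strand of chromosome 9 at chr9:59656368-59679375, with 11 transcripts whose joined exons cover 5001 bases. The transcripts Pkm-201 (2432 bases) and Pkm-202 (2041 bases) differ inside the coding sequence at exon 9 of each, which has 167 bases in both. The exon of Pkm-201 is the M2 exon, at chr9:59675568-59675734, and that of Pkm-202 is the M1 exon, at chr9:59675029-59675195. They are shown because they are what separates the M forms and because the values below cannot separate them. Capitals mark the bases that differ between the exons when they are aligned position by position without gaps, both 5′ to 3′ on the plus strand.
Pkm-201, M2 exon: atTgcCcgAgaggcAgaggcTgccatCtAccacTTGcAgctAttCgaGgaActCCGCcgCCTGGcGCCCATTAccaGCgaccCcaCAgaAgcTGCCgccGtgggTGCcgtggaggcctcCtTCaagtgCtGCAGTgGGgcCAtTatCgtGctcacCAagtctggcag
Pkm-202, M1 exon: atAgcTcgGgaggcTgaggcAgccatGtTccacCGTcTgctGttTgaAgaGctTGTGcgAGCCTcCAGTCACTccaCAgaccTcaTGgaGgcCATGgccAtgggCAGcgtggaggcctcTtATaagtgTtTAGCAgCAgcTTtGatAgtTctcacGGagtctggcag
The exons share 103 of 167 positions (61.7%), and the other 64 differ. The deposited values are 1 number per gene and liver, so they sum over M1 and M2.

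A further gene of the annotation lies over both of these exons on the same strand. It is ENSMUSG00000111394, listed under the name AC160637.1 in the table and Gm49759 in GENCODE, of the type TEC (to be experimentally tested), at chr9:59672814-59676700. Its 3887 bases hold 767 of the joined exon bases of Pkm (15.3%), and a read in these bases matches both genes. How such reads were assigned is not given in the sources used here, and strand does not separate them. It is named for its position, after its values were seen. AC160637.1 had 0.50, 0.624 and 0.543 TPM in Fgf18 f/f livers 1 to 3 and 1.30, 1.13 and 2.50 TPM in Fgf18 △HSC livers 1 to 3, with its highest liver the same as that of Pkm. Its log2 difference was 1.33 (standard error 0.29, limma adjusted p = 0.00279), which was 0.41 after rescaling of the livers and 0.73 with a pseudocount of 1, both under the limit of 1 used for calls. Its reads were 16.0 to 21.5% of those on Pkm in the same liver. How much of the level of either gene comes from the other was not tested.

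**Figure D1:**
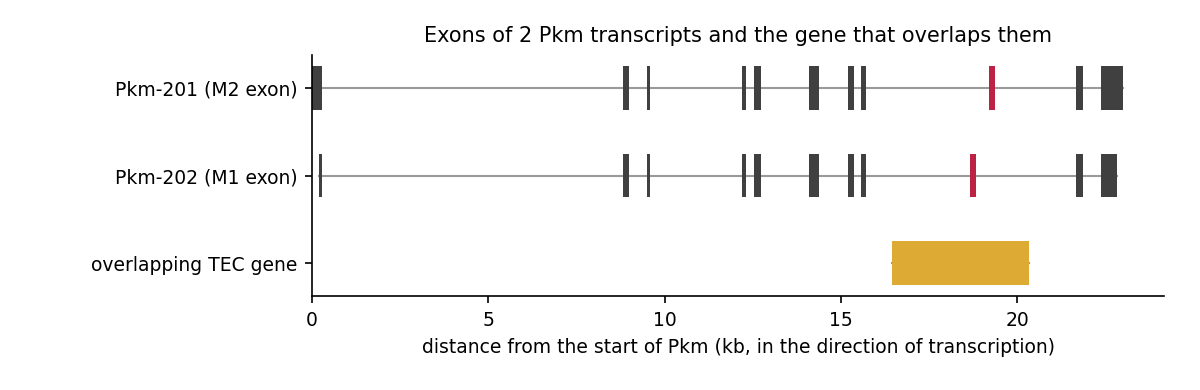
Exons (boxes) of the transcripts Pkm-201 and Pkm-202 and the span of the overlapping TEC gene AC160637.1, by distance from the start of Pkm in kb. The alternative exons (red), 167 bases each, both fall inside the overlapping gene (yellow), and the other exons drawn lie outside it.

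Pkm was low in Fgf18 f/f mice and higher in each Fgf18 △HSC liver. Values are taken as TPM, reads divided by gene length and scaled to 1 total in every library. The table does not name its unit, and for the listed genes TPM and FPKM differ only by a constant per library. Pkm had 2.29, 2.25 and 2.25 TPM in Fgf18 f/f livers 1 to 3, on 306, 251 and 203 recovered reads. It had 6.33, 5.34 and 11.0 TPM in Fgf18 △HSC livers 1 to 3, on 657, 408 and 1090 reads. The groups did not overlap, the Fgf18 △HSC livers were all above the highest Fgf18 f/f liver, and Fgf18 △HSC liver 3 stood above the others. Nearly all genes named here had separate groups, in a table selected on this contrast. Separate groups are therefore no trait particular to Pkm, and their share over all listed genes was not computed.

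The means were 2.26 ± 0.0187 TPM (SD, n = 3) and 7.56 ± 3.03 TPM (SD, n = 3), 3.34-fold apart. On log2(TPM + 0.1) the difference was 1.63 (standard error, SE, 0.25). Among the 2083 genes with higher values in Fgf18 △HSC livers, 83.5% had a smaller difference. Each Fgf18 △HSC liver was from 2.34 to 4.89 times as high as any single Fgf18 f/f liver. Without Fgf18 △HSC liver 3 the log2 difference was 1.32. Rescaling each liver by its median ratio over the listed genes lowered it to 0.62 and lowered the median of all 3201 genes from 0.88 to 0.19. Pkm thus stood 0.75 above that median as deposited and 0.43 above it after rescaling. The scaling factors were 0.570 to 0.653 in Fgf18 f/f livers and 1.12 to 1.36 in Fgf18 △HSC livers. All listed genes were selected for a group difference, so these factors cannot separate library scale from the selected shift. Calls after rescaling are therefore no independent check of a rise or a fall.

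The spread of Pkm differed between the groups. Its coefficient of variation was 40.1% in Fgf18 △HSC livers, and 89.5% of the 1668 genes averaging 1 TPM or more in a group had a smaller one, the median being 16.2%. In Fgf18 f/f livers it was 0.826%, although the reads give a counting error of 5.72 to 7.02% per liver, so this SD understates the error of the mean. None of the 153 other genes with 150 to 400 reads in each of those livers had a smaller coefficient of variation there, and their median was 10.05%. In Fgf18 △HSC livers the counting error was 3.03 to 4.95%, below the 2.06-fold range between the highest and the lowest liver. In bulk tissue, more cells that express Pkm and more Pkm RNA per cell cannot be told apart. Errors computed from reads cover counting error only.

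Pklr moved the other way from a far higher level. Pklr (ENSMUSG00000041237, chr3:89136142-89146784, plus strand) had 325, 324 and 256 TPM in Fgf18 f/f livers 1 to 3 and 90.3, 48.6 and 65.5 TPM in Fgf18 △HSC livers 1 to 3. The groups did not overlap, and Fgf18 f/f liver 3 was the lowest of its group. Pklr fell, with a log2 difference of -2.18 (SE 0.22, limma adjusted p = 7.5e-05), from 302 ± 39.6 to 68.1 ± 20.97 TPM (SD, n = 3 each), or 4.43-fold. The fall had the same direction and passed both limits in every alternative fit that was run.

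Both levels are per length of the joined exons, 5001 bases for Pkm and 3236 for Pklr. The transcripts Pkm-201 and Pkm-202 are shorter, at 2432 and 2041 bases, so the ratios, shares and sums below depend on the lengths used. Pklr was 142, 144 and 114 times as high as Pkm in Fgf18 f/f livers 1 to 3. It was 14.3, 9.10 and 5.95 times as high in Fgf18 △HSC livers 1 to 3. This ratio within a liver does not depend on how the libraries were scaled. Its groups had to be separate, since those of both genes were, in opposite directions. Pkm made up 0.698, 0.691 and 0.872% of the TPM of both genes in Fgf18 f/f livers against 6.56, 9.90 and 14.4% in Fgf18 △HSC livers, a mean of 0.754% against 10.3%. Of the reads on both genes, with no division by length, Pkm took 1.07, 1.06 and 1.34% in Fgf18 f/f livers against 9.78, 14.5 and 20.6% in Fgf18 △HSC livers. The summed TPM of both genes was 328, 326 and 258 in Fgf18 f/f livers against 96.6, 53.9 and 76.5 in Fgf18 △HSC livers. The sum was thus 4.02-fold lower in the Fgf18 △HSC group while Pkm was 3.34-fold higher, because Pklr remained the larger part in all 6 livers. The order of the Fgf18 △HSC livers differed between the genes, since liver 1 was highest for Pklr and liver 3 for Pkm. The ratio rests on Pkm, so its difference between the groups is also a description.

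**Figure D2:**
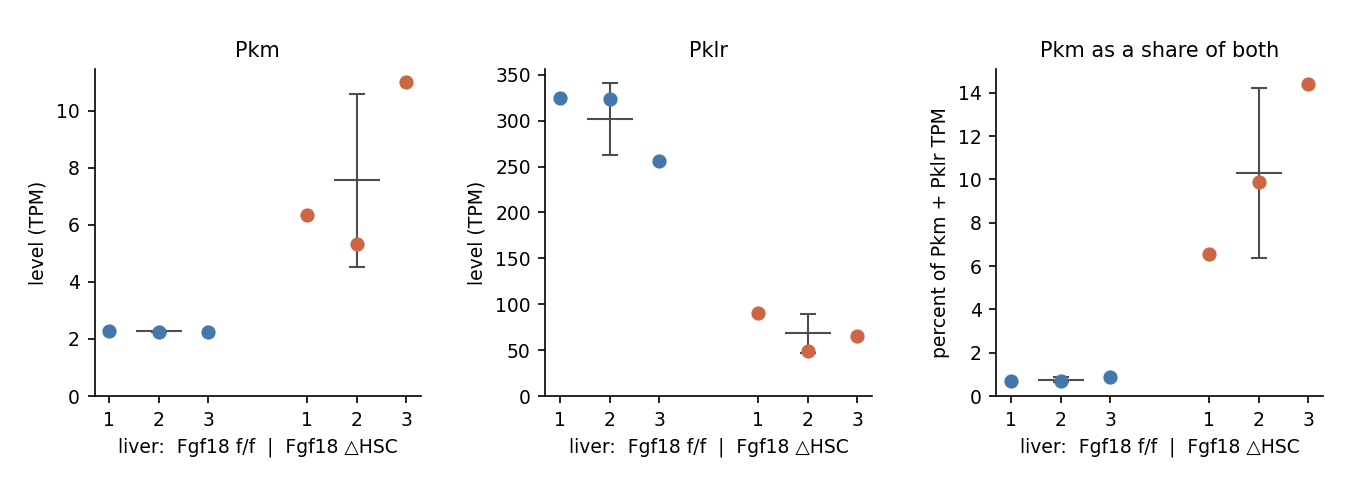
Level of Pkm, level of Pklr and Pkm as a percent of the summed TPM of both genes in each liver (points), with the group mean and SD (n = 3) as a bar with caps, on axes from 0. Pkm lay at 2.25 to 2.29 TPM in Fgf18 f/f livers, against 5.34 to 11.0 TPM in Fgf18 △HSC livers, while Pklr fell from 256 to 325 TPM to 48.6 to 90.3 TPM.

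The rest of the pathway was described from a list of 79 further genes of glycolysis, gluconeogenesis, pyruvate use and hexose or lactate transport, of which 20 had values. By limma over all genes, with an adjusted p under 0.05 and an absolute log2 difference above 1, 41.6% of the 3201 listed genes were called higher in Fgf18 △HSC livers and 30.0% lower. Of the 20 pathway genes, 3 were called higher and 15 lower, with a median log2 difference of -1.26 against 0.88 over all listed genes. The genes called higher were Slc16a3, Me2 and Hkdc1. By limma, none of the 3 passed with a pseudocount of 1 or after rescaling of the livers, where 4 and 2 of the 4 genes with higher values had an unadjusted p under 0.05. Of the genes lower, 10 passed with a pseudocount of 1 and 16 after rescaling. The 12 further genes of lower glycolysis, between triose phosphate and pyruvate kinase, were not analysed here.

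Among the transporters, Slc16a3 was the one nearest to Pkm. Slc16a3 (chr11:120948480-120960868, plus strand) encodes MCT4, the carrier by which strongly glycolytic cells export lactate, and it had 0.471, 0.481 and 0.522 TPM in Fgf18 f/f livers 1 to 3 and 1.67, 1.21 and 2.90 TPM in Fgf18 △HSC livers 1 to 3. It rose, with a log2 difference of 1.69 (SE 0.30, limma adjusted p = 0.000996). Among the Fgf18 △HSC livers Slc16a3 had the order seen for Pkm, with liver 3 highest and liver 2 lowest. So did 29.3% of the 730 higher genes averaging 1 TPM or more in a group. Slc16a7, which encodes MCT2, a high-affinity monocarboxylate carrier, fell from 6.15 ± 0.216 to 1.5 ± 0.191 TPM (SD, n = 3 each). Slc2a2, the GLUT2 glucose carrier of hepatocytes, fell from 72.7 ± 1.81 to 26.6 ± 3.97 TPM (SD, n = 3 each). The fructose carrier gene Slc2a5 fell by 2.35 on the log2 scale. Slc2a4, Slc2a8 and Slc2a9 fell as well, with log2 differences of -1.77, -1.24 and -1.31. Slc2a3, the GLUT3 carrier of neurons and leukocytes, had 0.480 ± 0.0588 against 1.04 ± 0.351 TPM (SD, n = 3 each) and a log2 difference of 0.93, under the limit of 1. It passed without Fgf18 △HSC liver 2 (1.18) or Fgf18 f/f liver 2 (1.01), with a pseudocount of 0.01 (1.05) and by limma-voom on the reads (1.08).

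Of the enzymes upstream of pyruvate kinase, Hkdc1, a hexokinase-like gene, rose from 0.0833 ± 0.0202 to 0.295 ± 0.115 TPM (SD, n = 3 each) on 6 to 41 reads per liver, and its log2 difference of 1.07 was 0.98 without Fgf18 △HSC liver 3, 0.90 without Fgf18 △HSC liver 1 and 0.99 without Fgf18 f/f liver 3, all under the limit. Pfkm, the muscle form of phosphofructokinase, fell by 1.27 on the log2 scale. Aldoc, the brain form of aldolase, fell by 1.12, and by 0.94 without Fgf18 △HSC liver 2, which is under the limit.

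Downstream of pyruvate, Pdk4 encodes a kinase that switches off pyruvate dehydrogenase, and it had 95.1, 79.2 and 69.3 TPM in Fgf18 f/f livers 1 to 3 and 17.5, 9.97 and 20.3 TPM in Fgf18 △HSC livers 1 to 3, with a log2 difference of -2.39 (SE 0.26, limma adjusted p = 9.39e-05). Its relatives Pdk1 and Pdk2 fell by 1.07 and 1.24, and the fall of Pdk1 was 0.98 without Fgf18 △HSC liver 2. The malic enzymes moved in opposite directions. Me1, the cytosolic enzyme that supplies NADPH for lipid synthesis in hepatocytes, fell from 158 ± 19.5 to 62.1 ± 13.1 TPM (SD, n = 3 each). Me2, a mitochondrial form, had 0.411, 0.420 and 0.475 TPM in Fgf18 f/f livers against 1.12, 1.41 and 2.31 TPM in Fgf18 △HSC livers, a rise of 1.62 on the log2 scale.

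Genes that lead from pyruvate back to glucose were lower. Pck1, which makes phosphoenolpyruvate, the substrate of pyruvate kinase, fell from 393 ± 56.7 to 126 ± 18.2 TPM (SD, n = 3 each). Fbp1, the fructose bisphosphatase, fell from 531 ± 12.8 to 243 ± 30.1 TPM (SD, n = 3 each). Pcx, the pyruvate carboxylase, had 103 ± 14.9 against 51.7 ± 5.65 TPM (SD, n = 3 each), and its log2 difference of -0.996 did not reach the limit, although it did after rescaling (-2.03) and without Fgf18 △HSC liver 1 (-1.06), Fgf18 △HSC liver 2 (-1.03) or Fgf18 f/f liver 3 (-1.12). Within the list, Pkm shared its direction with 4 genes whose levels stayed under 3 TPM in every liver. Slc2a4 and Slc2a5 also stayed under 3 TPM in every liver, and they fell. Each gene with a mean above 3 TPM in Fgf18 f/f livers was lower in Fgf18 △HSC livers.

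**Figure D3:**
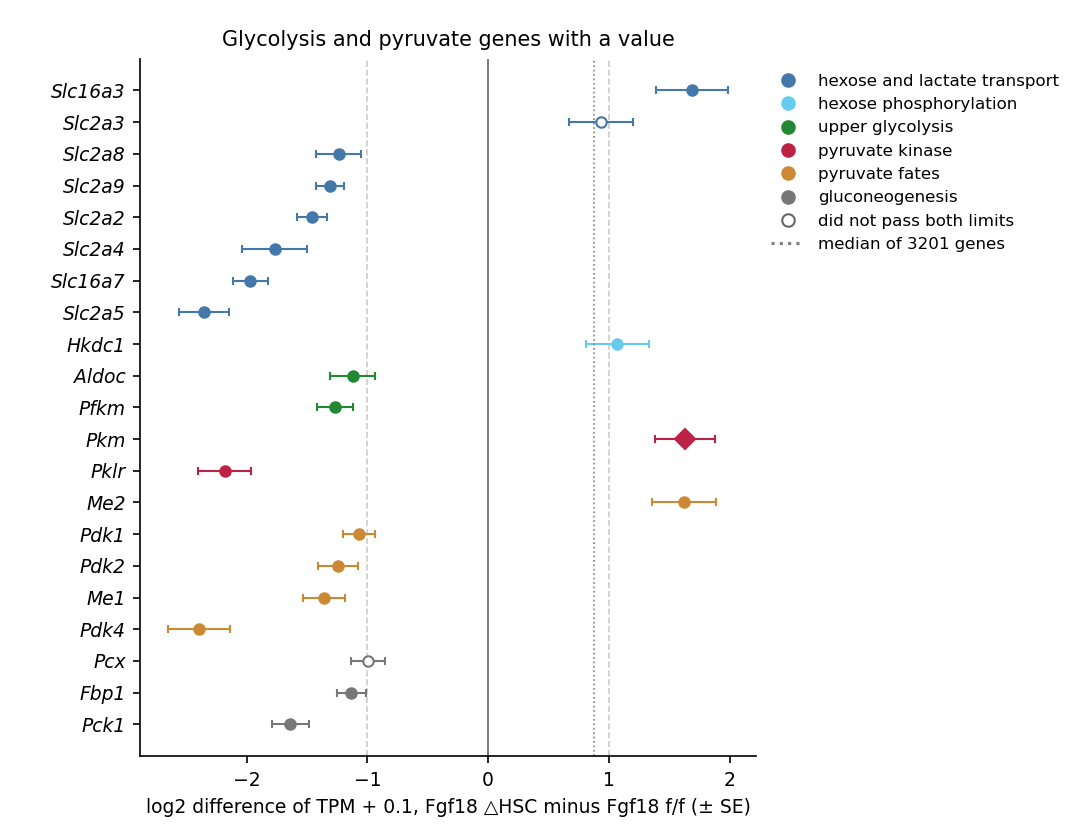
Log2 difference of TPM + 0.1, Fgf18 △HSC minus Fgf18 f/f, with its standard error, for Pkm (diamond) and the 20 other glycolysis and pyruvate genes with values, coloured by role. Dashed lines mark a difference of 1 in each direction and the dotted line the median of the 3201 listed genes at 0.88; Pkm at 1.63 stood with Slc16a3, Me2, Hkdc1 and Slc2a3, and the other 16 genes were below 0.

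Of 31 genes of pathways that branch from glycolysis, 7 had values, and 3 were called higher and 3 lower, beside 41.6% and 30.0% of all listed genes. Psat1, of serine synthesis, rose from 0.904 ± 0.181 to 2.47 ± 0.507 TPM (SD, n = 3 each). The glycogen synthases differed in the way the pyruvate kinases did. Gys1, the muscle form, rose by 1.6 on the log2 scale, from 0.229 to 0.884 TPM, and Gys2, the liver form, fell by 1.53, from 82.0 to 28.5 TPM. Ppp1r3c and Ppp1r3g, targeting subunits that bring a phosphatase to glycogen, moved by 1.77 and -3.03. After rescaling, no gene of this list was called higher by limma, while 2 of the 3 kept an unadjusted p under 0.05. With a pseudocount of 1, 1 of the 3 passed, and the log2 differences of Gys1 and Psat1 were 0.61 and 0.86.

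Genes known to act on Pkm gave few values. Of the 13 splicing factors listed for the choice between M1 and M2, none was analysed here. Of 17 regulators tied to hypoxia and Myc, 2 had values. Myc, a transcription factor known to raise glycolytic genes and the factors that favour M2, had 39.3, 36.4 and 35.5 TPM in Fgf18 f/f livers 1 to 3 and 17.5, 11.5 and 18.7 TPM in Fgf18 △HSC livers 1 to 3. It fell, with a log2 difference of -1.25 (SE 0.18, limma adjusted p = 0.000437), so its direction was opposite to that of Pkm. Mycn had overlapping groups, at 0.102 to 0.219 and 0.205 to 0.736 TPM, and passed without Fgf18 △HSC liver 1 (log2 difference 1.05).

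Hypoxia targets are a class to which Pkm is often assigned. Of 9 with values among 24, 5 were called higher and 3 lower, beside 41.6% and 30.0% of all listed genes. Bnip3, a mitophagy gene, fell by 2.1 on the log2 scale, while Kdm3a, a histone demethylase, rose by 1.25 and Ankrd37 by 1.37. After rescaling, none of the 5 was called higher by limma and none had an unadjusted p under 0.05, and all 3 genes called lower still passed. With a pseudocount of 1, 1 of the 5 passed.

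Cell cycle genes gave 3 values among 30. Mki67, which marks dividing cells, fell from 0.797 ± 0.0960 to 0.284 ± 0.0512 TPM (SD, n = 3 each). Cdc20 and Cdc6, which act in mitosis and in the start of replication, rose on 0 to 21 and 2 to 38 reads per liver. These levels were all below 1 TPM, and none of the 3 passed with a pseudocount of 1, although all had an unadjusted p under 0.05 by limma.

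Of the apoptosis genes listed, the class in which the study drew Pkm, 9 of 48 had values, with a median log2 difference of -1.29. Of these, 2 were called higher and 6 lower, beside 41.6% and 30.0% of all listed genes. Bbc3, which encodes the death-promoting protein PUMA, rose from 0.920 ± 0.179 to 2.99 ± 0.410 TPM (SD, n = 3 each). Birc3, an inhibitor of apoptosis, fell by 1.46 on the log2 scale. The anti-apoptotic gene Bcl2a1a fell by 1.44 and Bmf, a death-promoting relative, by 1.30. With a pseudocount of 1 the differences of Bcl2a1a and Bmf were -0.64 and -0.73, under the limit, and 3 of the 6 genes called lower passed. Without Fgf18 △HSC liver 2 that of Bmf was -0.98. Bcl2a1a has near-identical copies, so its reads are uncertain. After rescaling no gene of this list was called higher by limma, and 1 of the 3 with higher values had an unadjusted p under 0.05.

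The pattern of Pkm over the livers was compared with that of the 1667 other genes averaging 1 TPM or more in a group. Over all 6 livers most genes are strongly related to Pkm in one direction or the other, since all were selected on the group difference, and the median absolute Pearson r was 0.918. Deviations from the group means leave that difference out, and they gave r above 0.9 for 76 genes (4.56%). These points share their libraries, they come from 6 livers in 2 groups, and Fgf18 △HSC liver 3 lies farthest from its group mean for Pkm. Pkm hardly varied in Fgf18 f/f livers (coefficient of variation 0.826%), so r of deviations rests mainly on the 3 Fgf18 △HSC livers.

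The 10 genes with the highest r of deviations were led by Tarm1, a receptor of myeloid cells (r = 0.993), Pla2g7, a secreted phospholipase of macrophages (0.984), Slc16a3 (0.983) and Ccr1, a chemokine receptor of monocytes and neutrophils (0.982). They also held Ms4a4c, Tlr2, Ccrl2, Gbp5 and G430095P16Rik. Tlr2, Ccrl2, Gbp5 and G430095P16Rik fell between the groups even though they followed Pkm among the Fgf18 △HSC livers. Tlr2, a receptor for bacterial lipoproteins, had 10.4, 10.9 and 9.85 TPM in Fgf18 f/f livers against 3.68, 2.80 and 5.77 TPM in Fgf18 △HSC livers.

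Over all 6 livers the nearest genes included Pla2g7 (r = 0.998), Slc16a3 (0.997), Cd93, Tgfb1, Gpr4, Pirb, Tgfbi, Fxyd5 and Cd300ld. Pla2g7 had 0.952, 1.05 and 0.936 TPM in Fgf18 f/f livers against 2.52, 2.1 and 4.16 TPM in Fgf18 △HSC livers. Pla2g7 and Slc16a3 were on both lists, and each had Fgf18 △HSC liver 3 highest and liver 2 lowest, as Pkm did.

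The 5 genes with the lowest r of deviations were Gm4956 (-0.995), Uox (-0.991), Dpyd, Gm43442 and Mup-ps20. Uox, the urate oxidase of hepatocytes, had 391, 405 and 390 TPM in Fgf18 f/f livers against 205, 216 and 161 TPM in Fgf18 △HSC livers, lowest where Pkm was highest. Dpyd, which degrades pyrimidines, had 39.2, 40.2 and 38.4 against 19.1, 20.3 and 16.0 TPM.

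The membership of the 10 nearest genes by deviations was unstable. Between 0 and 3 of the 10 stayed among the nearest when 1 liver was left out, and 0 did without Fgf18 △HSC liver 3. With ranks in place of log2 values 4 stayed, and with a pseudocount of 1, 6 did. Of the 730 genes higher in Fgf18 △HSC livers, 214 (29.3%) had the order of the Fgf18 △HSC livers that Pkm had, and of the 937 lower genes 132 (14.1%) did.

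**Figure D4:**
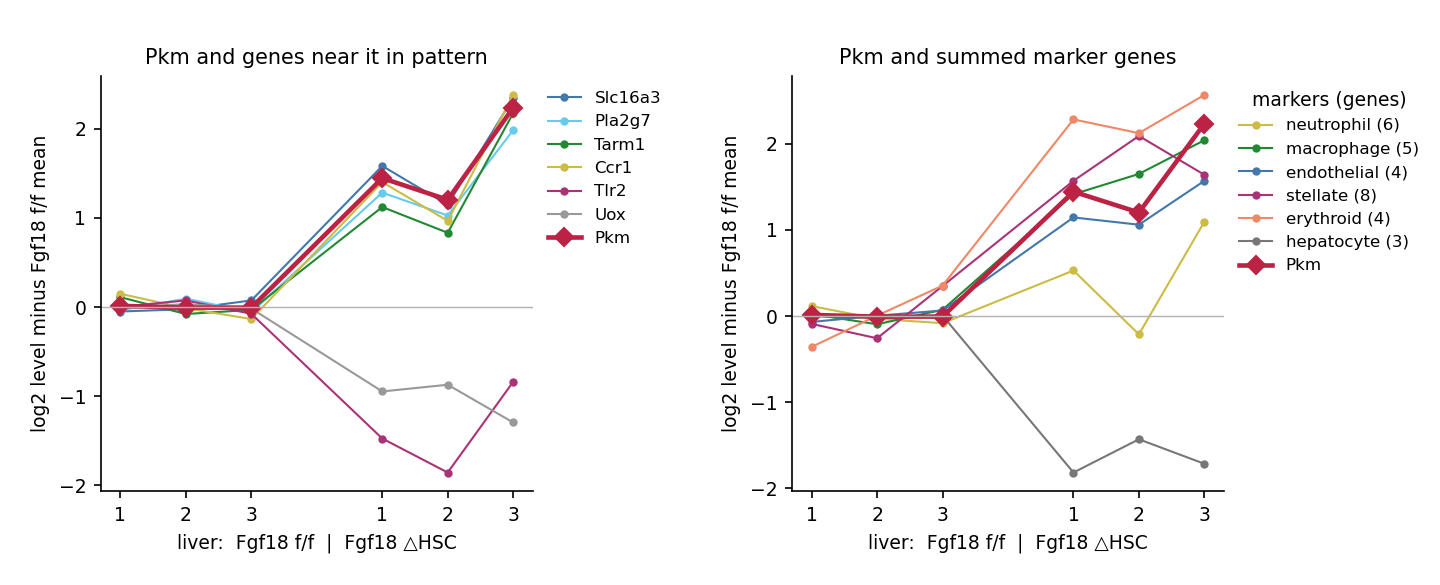
Log2 level of each gene (TPM + 0.1), or of the summed TPM of each marker list, minus its mean in the 3 Fgf18 f/f livers, for Pkm (diamonds), genes named for a pattern near or opposite to it (left) and marker lists (right) in the 6 livers. Among the Fgf18 △HSC livers, Slc16a3, Pla2g7, Tarm1 and Ccr1 follow Pkm with liver 3 highest and Tlr2 follows it from below 0. The hepatocyte sum is below 0 in all 3 Fgf18 △HSC livers.

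Markers of the cells that could hold Pkm RNA moved beside it, and their part in the level of Pkm was not tested. The liver label was met by hepatocyte genes at high level, with Cyp2e1 at 461 to 1955 TPM over the 6 livers. The hepatocyte markers with values, 3 of 10 with Pklr among them, all fell, and their sum was 2796 to 2885 TPM in Fgf18 f/f livers against 807 to 1055 TPM in Fgf18 △HSC livers. Markers of the other liver cells were mostly higher, and none with a value was at 0 in any liver. The counts of called markers below stand beside 41.6% of all listed genes called higher and 30.0% called lower.

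Neutrophil markers split. Of 6 with values among 13, the receptor genes Cxcr2 and Csf3r and the late granule gene Mmp8 rose, and the granule genes Camp, Ltf and Ngp fell. Cxcr2 had 2.30, 2.30 and 2.24 TPM in Fgf18 f/f livers 1 to 3 and 5.96, 2.98 and 10.1 TPM in Fgf18 △HSC livers 1 to 3, with a log2 difference of 1.27 (SE 0.37, limma adjusted p = 0.0108). That is the order of Pkm among the Fgf18 △HSC livers, at nearly the level of Pkm in Fgf18 f/f livers. Of the 730 higher genes averaging 1 TPM or more in a group, 29.3% had this order. Cxcr2 and Csf3r were named after their values were seen. Csf3r and Mmp8 had the same order, at 9.76, 6.82 and 17.0 TPM and at 14.9, 8.50 and 19.2 TPM in Fgf18 △HSC livers 1 to 3. Ngp fell by 3.68 on the log2 scale, to 0.455 to 0.947 TPM. Without Fgf18 △HSC liver 3, 1 of the 3 neutrophil genes called higher still passed, and the log2 differences of Cxcr2 and Csf3r were 0.86 and 0.75. That of Csf3r was 0.95 without Fgf18 f/f liver 3. The summed level of the list was 20.8 to 23.8 TPM in Fgf18 f/f livers against 31.7, 19.0 and 47.0 TPM in Fgf18 △HSC livers 1 to 3.

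Macrophage markers were higher, except that Adgre1 (0.328 against 0.684 TPM as deposited) turned lower after rescaling, with 4 of the 5 with values among 12 called, and a sum of 13.3 to 15.0 against 38.0 to 58.7 TPM. Lyz2, the lysozyme of macrophages and neutrophils, had 8.77, 8.87 and 9.70 against 22.7, 26.9 and 36.9 TPM. Ccr2, the receptor of blood monocytes, had 0.199, 0.219 and 0.320 against 1.05, 0.765 and 1.98 TPM and shared the order of Pkm, while Lyz2 and Cd68 were higher in Fgf18 △HSC liver 2 than in liver 1.

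All 4 sinusoidal endothelial markers with values, of 9, rose, their sum going from 18.9 to 20.7 TPM to 41.4 to 58.9 TPM. Lyve1, Cdh5 and Pecam1 had their highest value in Fgf18 △HSC liver 3, as Pkm did, although Pecam1 was lowest in liver 1. Gpr182 was highest in liver 2, where Pkm was lowest. Without liver 3 the log2 difference of Lyve1, 1.13, was 0.93 and under the limit. HSC markers were higher in all 8 with values of 17, and 6 were called, with a sum of 2.76 to 4.20 against 9.80 to 14.1 TPM. Acta2, the smooth muscle actin of activated HSCs, was highest in Fgf18 △HSC liver 2, where Pkm was lowest, at 4.45 TPM against 2.0 and 1.56 TPM in livers 1 and 3. Erythroid genes, of which all 4 with values of 5 rose, had a sum of 70.9 to 116 against 396 to 539 TPM, and the platelet gene Ppbp, the 1 with a value of 5, rose by 1.76.

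Of the cholangiocyte genes, 2 were called higher and 1 lower among 5 with values of 7. Spp1, also a gene of macrophages and activated HSCs, rose from 13.3 ± 2.44 to 53.0 ± 11.0 TPM (SD, n = 3 each), and Sox9 fell by 1.04, which became 0.84 without Fgf18 △HSC liver 2, 0.91 without Fgf18 f/f liver 1 and 0.99 without Fgf18 f/f liver 2. Gzma and Gzmb, the T or NK cell genes with values among 10, fell, at 1.94 ± 0.318 against 0.494 ± 0.139 TPM for Gzmb. The fall of Gzma lost its call without Fgf18 f/f liver 3 (log2 difference -1.23) and without Fgf18 △HSC liver 2 (-0.87). B cell and striated muscle markers were not analysed here. After rescaling, 1 of 8 HSC, 0 of 4 endothelial, 1 of 5 macrophage, 1 of 6 neutrophil and 4 of 4 erythroid genes were called higher by limma. Over all 3201 listed genes, 281 were called higher in that fit. In the same order, 3, 2, 4, 1 and 4 of the markers were higher at an unadjusted p under 0.05 by limma, and the hepatocyte genes still fell. No cholangiocyte or platelet gene was called higher after rescaling, with log2 differences of 0.95 for Spp1 and 0.81 for Ppbp. In each of these lists 1 gene was higher at an unadjusted p under 0.05 by limma. With a pseudocount of 1, 3 HSC, 4 endothelial, 2 macrophage and 2 neutrophil genes were called higher, beside 266 of all 3201 listed genes.

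The table as a whole sets how these values can be read. It held 3201 genes, 2441 of them protein-coding, and 1333 were called higher and 961 lower, or 281 and 1115 after rescaling. The reads recovered on these genes numbered 1574330 to 4852000 per liver, and a single read per kb of gene stood for 0.0374 to 0.0655 TPM. If the values are TPM, the listed genes made up 7.14 to 7.93% of all TPM in Fgf18 f/f livers against 3.89 to 3.99% in Fgf18 △HSC livers. These shares do not hold if the unit is FPKM. Total reads per library are unknown, and counts of called genes apply to a list already selected on the same contrast.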

How the data were processed

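RNA was isolated with Trizol and stranded mRNA libraries were prepared from 6 whole livers. According to the methods and processing notes, reads were trimmed with cutadapt 2.5, aligned to GRCm38 (mm10) with HISAT2 2.1.0, and counted per gene with featureCounts 1.6.3, and the authors tested the groups with DESeq2. Deposited by the authors was 1 table of selected genes with a value per liver, which is taken as TPM although its unit is not named. The same deposited table also holds the authors' log2 fold changes, p-values, adjusted p-values and a mark of direction, which were used only to see that the genes had been selected on fold change and unadjusted p.

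Of 3201 genes, 3196 matched GENCODE M21 (GRCm38), from which positions, exon lengths and exon sequences were read. Values times exon length gave whole reads, within 0.02 reads, for 92.2 to 93.1% of values under 5000 reads in each liver, and for 2933 genes in all livers. The log2(TPM + 0.1) values of all genes were compared with limma 3.58.1 in R 4.3.3 (linear model of 2 groups, moderated statistics with a mean-variance trend). Calls needed an absolute log2 difference above 1 and p under 0.05 after Benjamini-Hochberg adjustment over all genes. Fold differences on this scale understate changes of low genes. The limma fit and the limma-voom fit were also run on simulated reads, in which far fewer genes differed between the groups. Pkm is 1 of the genes of the fit and of the totals over the whole table, and it was left out of the list counts and given no test.

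Named genes were all glycolysis and pyruvate genes with values, up to 4 per other list with the largest differences, and the 10 nearest and 5 farthest from Pkm by Pearson r. AC160637.1, Psat1, Cxcr2, Csf3r and Adgre1 are named outside this rule, after their values were seen. Some genes that the rule names are not reported here. Members and lists were chosen with earlier results of these data known. The alternatives were other pseudocounts (0.01 and 1), a minimum mean of 1 TPM, rescaled livers, no trend, no fold limit, a fit of protein-coding genes, limma-voom on the recovered reads, the replicate number as a block, ranks for r, and leaving out each liver.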

Additional observations from a re-analysis of the deposited data

How the results depend on the processing

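The log2 difference of Pkm was 1.63 and kept its direction in all 14 alternatives, though in most of them it could not have changed. The minimum mean, no trend, protein-coding and replicate block fits leave this difference as it is by design. As the groups did not overlap, leaving out a liver could not reverse it. It was 0.62 after rescaling of the livers, 1.34 with a pseudocount of 1, 1.68 by limma-voom, and 1.32 to 1.84 when 1 liver was left out. The limma-voom fit used reads recovered from the same values and kept the deposited scale of each library. It is thus no separate check of that scale. Genes called higher numbered 1333, and 266 with a pseudocount of 1, 1995 with 0.01, 1890 by limma-voom, 522 with a mean of at least 1 TPM, 281 after rescaling, 2005 with no limit on the difference and 1204 to 1377 without 1 liver. Genes called lower numbered 961, and 566 with a pseudocount of 1, 1115 after rescaling and 907 to 975 without 1 liver. Of the glycolysis and pyruvate genes, 0 of the 3 called higher passed with a pseudocount of 1 or after rescaling, and 2 to 4 without 1 liver, with 14 to 16 called lower. Of the 10 genes nearest to Pkm, 4 stayed with ranks, 6 with a pseudocount of 1 and 0 to 3 without 1 liver.

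The replicate numbers of the titles were shared between the groups, and the labels do not say whether same-numbered livers were paired. Deviations of same-numbered livers were hardly correlated over the listed genes (0.06, 0.01 and 0.03). A pairing that moved few of these genes would not show in them. With the replicate number as a block, 1337 genes were called higher and 963 lower, and the difference of Pkm was 1.63. Among 92 named genes, 38 lost their call after rescaling, 34 with a pseudocount of 1 and 1 to 9 without 1 liver, and no gene in the other fits lost it. With a mean of at least 1 TPM, in protein-coding genes and by limma-voom, 17, 4 and 5 called genes were not in the fit. Adgre1, which was not called, reversed to -0.0277 after rescaling, and no other named gene reversed. The cause of these shifts was not tested. Depth limits genes with few reads, such as Hkdc1, Cdc20 and Cdc6.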
